A study of Mus musculus with 7 samples.

Results

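The kynurenine pathway is the main route by which the liver breaks down tryptophan. Hepatocytes hold its enzymes, which turn the amino acid into kynurenine and then either burn it or build NAD from it, and side branches yield kynurenic acid. The genes described here are 9 of the 19057 gene symbols on the array, namely Tdo2, Ido2, Afmid, Kmo, Kynu, Haao, Acmsd, Qprt and Aadat, with every probe that the platform annotation assigns to them. The pathway was chosen by the KO and WT values of Afmid, which encodes kynurenine formamidase and had been found lower in KO livers in an earlier look at the same arrays. Its difference between the groups is therefore given as a description, and nothing is read from its test. The other 8 genes were taken because they act in the pathway, with the earlier results known.

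Gene expression was measured on single-colour Illumina arrays in mouse liver at 12 h after PHx (partial hepatectomy, an operation that removes a share of the liver). The 4 KO samples lack the lymphotoxin beta receptor (genotype LTBR KO), and the 3 WT samples carry the gene. Strain C57BL/6 and the operation are common to all 7 samples, and with no unoperated liver analysed here, an effect of PHx and a constant effect of the genotype cannot be told apart. Age, sex and the allele are not in the labels, which also leave unsaid whether samples are separate mice. The p-values therefore cover only the spread among these samples, which may be technical. In whole tissue, fewer cells of a type and less RNA per cell cannot be told apart.

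The deposited intensities had a median of 91.1 on each of the 7 arrays and ran from 72.6 to 30878, and an intensity of 93.6 was taken as the upper bound of the background (the floor). Over all genes, KO arrays correlated with each other and WT arrays with each other at 0.967 to 0.987, and KO with WT arrays at 0.96 to 0.977. On the first principal component (31.1% of the variance) KO replicate 3 (-4.3) and WT replicate 3 (2.9) lay between the other KO arrays (-22.7 to -14.4) and the other WT arrays (26.9 and 28). On the second (26.2%) these replicates lay at opposite ends, at 36.8 for KO and -25.3 for WT, with the other arrays from -7.3 to 5.5. Without both replicates numbered 3, the pathway genes that moved by over 1.5 times were Tdo2 (-0.01), Ido2 (-0.19) and Aadat (-0.61). With all arrays their log2 differences were -0.16, -0.05 and -0.35. The targeted gene Ltbr had intensities of 120, 136.8, 129.3 and 110.5 in KO livers, against 160.5, 193.6 and 216.9 in WT livers. All KO values of Ltbr lay below all WT values, with a log2 difference of -1.04 (SE 0.20), but its adjusted p of 0.0878 by limma missed the threshold of 0.05. Without both replicates numbered 3, the arrays that lay between the groups, it was -0.94 (adjusted p = 0.0439 by limma). That fit called 569 genes, against 9 with all arrays, so the pass is not read as a result about Ltbr. Whether this probe lies within the deletion is not known here. The hepatocyte markers Alb, Apoa1, Apob, Ttr, Cps1, Hnf4a, Asgr1, Cyp2e1 and Serpina1a all passed the filter on dim probes.

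The genes lie on different chromosomes, with exceptions for Kmo and Acmsd on chromosome 1 and for Ido2 and Aadat on chromosome 8. Afmid lies on chromosome 11 from 117825503 to 117839908 and Haao on chromosome 17 from 83831348 to 83848981 (RefSeq, GRCm38.p6). The 250 bases before the annotated transcript start of Afmid, Haao and Tdo2 are printed because Afmid and Haao were the genes of the pathway whose values did not overlap between the groups, and Tdo2 is its entry step. They are read 5′ to 3′ on each gene's own strand from RefSeq (GRCm38.p6), and capitals mark any of 6 motifs searched on both strands. The Afmid and Haao windows lie within the spans of those genes given above, so both genes are annotated as reaching further upstream than the start used here.
Afmid (chr11:117825669-117825918, plus strand): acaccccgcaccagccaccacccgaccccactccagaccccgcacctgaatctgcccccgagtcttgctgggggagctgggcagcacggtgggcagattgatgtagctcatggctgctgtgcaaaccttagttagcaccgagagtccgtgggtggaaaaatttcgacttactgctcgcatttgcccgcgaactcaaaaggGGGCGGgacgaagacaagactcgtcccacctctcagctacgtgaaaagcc
Haao (chr17:83846791-83847040, minus strand): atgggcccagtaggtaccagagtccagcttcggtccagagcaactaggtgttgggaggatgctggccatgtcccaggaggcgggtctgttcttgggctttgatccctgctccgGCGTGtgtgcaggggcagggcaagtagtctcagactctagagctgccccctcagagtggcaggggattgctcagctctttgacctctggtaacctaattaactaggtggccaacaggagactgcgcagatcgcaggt
Tdo2 (chr3:81975729-81975978, minus strand): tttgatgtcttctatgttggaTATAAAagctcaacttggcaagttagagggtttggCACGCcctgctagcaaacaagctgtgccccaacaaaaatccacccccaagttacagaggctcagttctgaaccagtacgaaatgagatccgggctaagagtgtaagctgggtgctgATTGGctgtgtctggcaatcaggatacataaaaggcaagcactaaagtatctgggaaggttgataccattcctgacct

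The motifs were the TATA box (TATAAA, in 12.4% of 32851 promoter windows of this length), the CCAAT box (CCAAT, 33.8%), the GC box (GGGCGG, 32.7%), the core bound by the aryl hydrocarbon receptor (GCGTG, 28.2%), an NF-kB site (0.98%) and an HNF4A site (CAAAGTCCA, 0.384%). Afmid held a GC box that begins 50 bases before the start, and Haao held the GCGTG core. Tdo2 held the letters of a TATA box (beginning at base -229 from the start), a CCAAT box and the GCGTG core, the last 2 read on the other strand. None of the 3 held the letters of the NF-kB or the HNF4A site in this window. Afmid and Haao windows had 59.6% and 58.4% G or C, against 46.4% for Tdo2 and a median of 52.4% over all windows. A match of letters is a description and not evidence of binding.

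The 9 genes were measured by 17 probes, 7 of them for Afmid, 3 for Haao and 1 for each of the others. All 17 lay above the floor on at least 3 arrays and were tested. In the fit across all 13190 genes or unnamed probes, with the brightest probe standing for each gene, 9 passed an adjusted p of 0.05 (0.0682%), 8 of them lower in KO (0.0607%), and Afmid was among these. None of the other 8 pathway genes passed. Of these 8, Haao and Qprt (2) had an unadjusted p under 0.05 in limma, as did 14.8% of all genes, with 6.52% lower in KO. All 9 pathway genes had a KO mean below the WT mean, as did 45.7% of all genes tested. Their median log2 difference was -0.35, against 0.03 for all genes tested. Every KO value lay below every WT value for 2 of the 9, Afmid and Haao, as for 5.48% of all genes. These counts include Afmid, and the pathway was chosen for it.

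**Figure D1:**
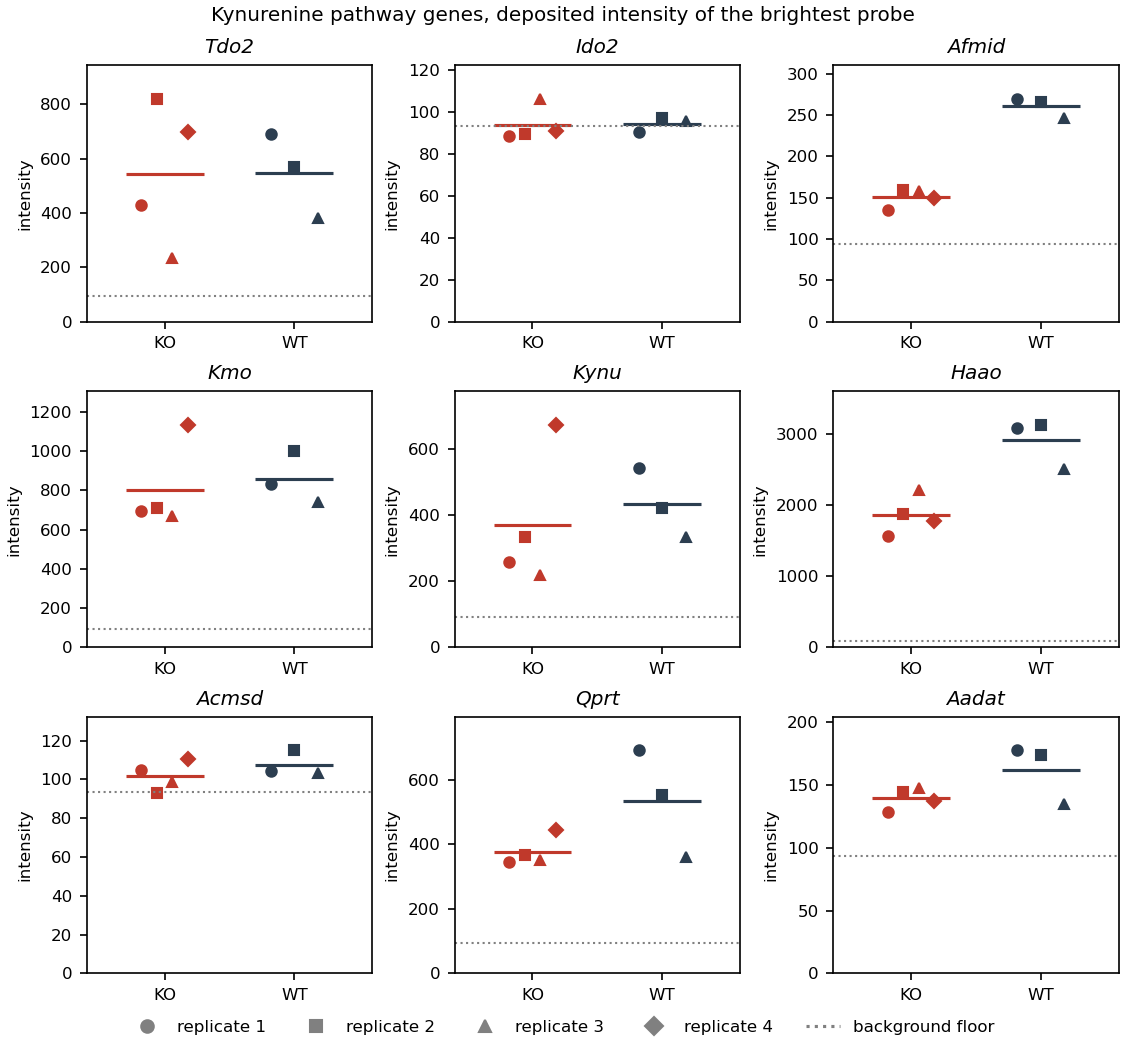
Deposited intensity (linear scale) of the brightest probe of each of the 9 pathway genes on each array, KO left of WT. Symbols give the replicate, horizontal bars the group mean and the dotted line the floor of 93.6. Afmid (134.5 to 159 in KO, 246.7 to 269.9 in WT) and Haao (1574.5 to 2218.2 in KO, 2509.9 to 3137.3 in WT) have no overlap between the groups, and the other 7 genes do.

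The pathway opens with tryptophan dioxygenases, which add oxygen to the ring of tryptophan and yield N-formylkynurenine. Tdo2, the dioxygenase of hepatocytes, had intensities of 428.3, 820.6, 235 and 696.4 in KO livers, against 690.1, 567.5 and 383.1 in WT livers. The KO values spanned the whole WT range and more, with KO replicate 3 lowest and KO replicate 2 highest of the 7 arrays. The log2 difference of -0.16 (SE 0.43, 95% interval -1.10 to 0.78) had an adjusted p of 0.905. Its sign depended on single arrays, and it was 0.26 without KO replicate 3 and 0.05 without WT replicate 1. With an interval this wide, these arrays could not resolve a moderate difference in Tdo2.

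Ido2, a related dioxygenase, was at the edge of detection. Its intensities were 88.7, 89.8, 106.5 and 90.9 in KO livers, against 90.5, 97.5 and 95.7 in WT livers. It exceeded the floor on 1 KO array and 2 WT arrays, and its log2 difference was -0.05 (SE 0.20, adjusted p = 0.935 by limma). Its sign turned without KO replicate 1 (0.02) and without WT replicate 2 (0.01).

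Afmid removes the formyl group from N-formylkynurenine, which gives kynurenine. At its brightest probe, the intensities were 134.5, 159, 158.4 and 150.2 in KO livers, against 269.9, 265.9 and 246.7 in WT livers. The highest KO array was well below the lowest WT array, and both groups were tight. On the background-corrected log2 scale Afmid averaged 6.46 ± 0.20 (SD, n = 4) in KO livers and 7.63 ± 0.09 (SD, n = 3) in WT livers, a log2 difference of -1.17 (SE 0.16), or 2.25-fold lower in KO. Without background correction the log2 difference was -0.80.

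The call that had drawn attention to Afmid was close to the threshold (adjusted p = 0.0434 by limma). It was kept without KO replicate 3 (adjusted p = 0.0498) and lost without each of the other 6 arrays (0.0525 to 0.306), while the log2 difference stayed between -1.23 and -1.08 in these 7 fits. Without KO replicate 3 and WT replicate 3 together it was -1.27. Over all 19 alternative settings, which use the same values that chose the pathway and so only describe the call, it was kept in 9. Quantile normalization after correction is among these 9 and repeated the main fit, since the arrays already shared their quantiles. The call was lost with the replicate number as a block (adjusted p = 0.297), with probes above the floor on all arrays (0.0552) and with a trended robust prior (0.0547).

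The other 6 Afmid probes were dimmer, and the annotation gives all 7 the same transcript accession. The next brightest read 104.1, 101.2, 105.2 and 108.6 in KO livers, against 157.7, 139.3 and 133.8 in WT livers, a log2 difference of -0.92 (SE 0.16). At 5 of the 7 probes every KO value lay below every WT value, with log2 differences of -1.17 to -0.46. The share over all 18771 probes tested was 6.53%, from which nothing is read here, since Afmid values chose the pathway.

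A probe that exceeded the floor on 0 of 4 KO arrays and on 3 of 3 WT arrays averaged 4.91 in KO livers and 5.63 in WT livers on the log2 scale. KO livers therefore have only an upper bound there, and WT was at least 1.56-fold higher. That probe passed the filter through its WT arrays alone. The remaining pair overlapped between the groups, with log2 differences of -0.11 (SE 0.17) and -0.20 (SE 0.16). Their mean intensities in KO livers were 93.9 and 91.1, next to the floor of 93.6.

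All 7 Afmid probes thus had a lower KO mean, with the largest differences at the brightest pair and the smallest at the pair that overlapped. The mean over the 7 probes differed by -0.62 (SE 0.13, adjusted p = 0.104 by limma). Probe sequences were not used here, so whether the probes read different transcripts was not tested.

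**Figure D2:**
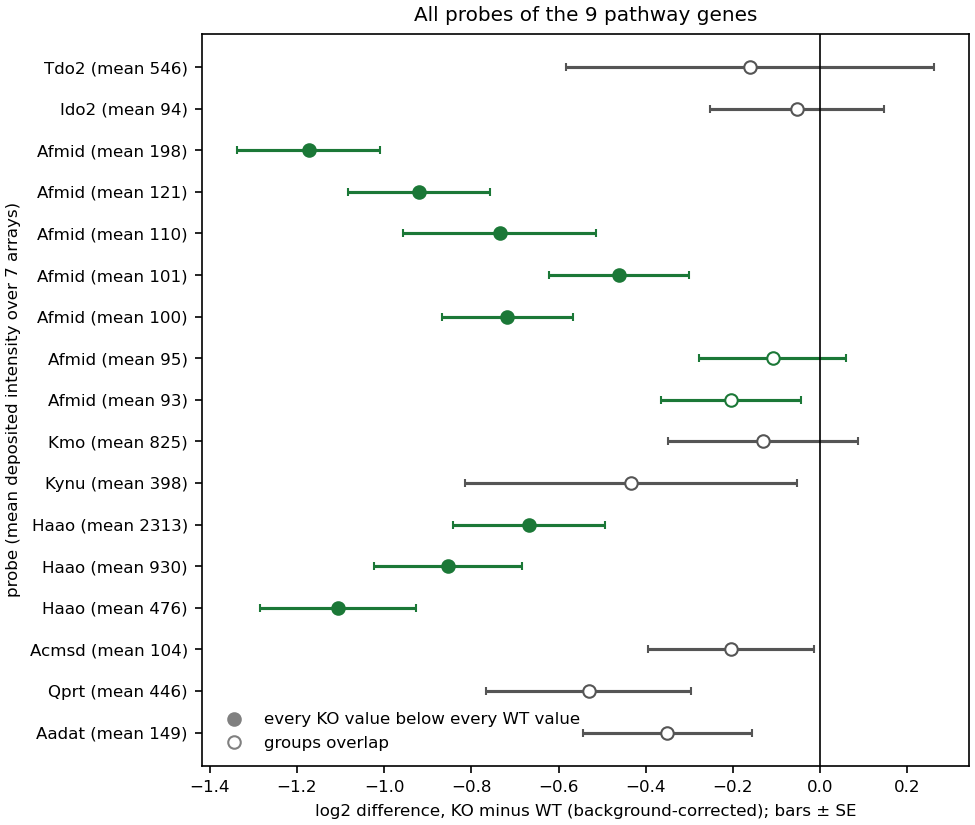
Log2 difference (KO minus WT, background-corrected scale) of each of the 17 probes, in pathway order, with bars of ± 1 SE. The number beside each gene is the probe's mean deposited intensity over 7 arrays, green marks Afmid and Haao, and filled points mark probes whose KO values all lie below their WT values. The 7 Afmid probes run from -1.17 to -0.11 and the 3 Haao probes from -0.67 to -1.11.

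Kynurenine then meets a branch. Kmo, the mitochondrial hydroxylase that makes 3-hydroxykynurenine, had intensities of 692.5, 712, 669 and 1134 in KO livers, against 832, 999.6 and 739.1 in WT livers. KO replicate 4 was the highest of all 7 arrays, and the other KO arrays lay below every WT array. The log2 difference was -0.13 (SE 0.22, 95% interval -0.61 to 0.35, adjusted p = 0.834 by limma). Without KO replicate 4 it was -0.32, and without WT replicate 2 it was -0.01.

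Kynu encodes kynureninase, which cleaves 3-hydroxykynurenine to 3-hydroxyanthranilate. It had intensities of 257.8, 333.9, 219.5 and 675 in KO livers, against 543.4, 421.6 and 335.8 in WT livers. The pattern resembled that of Kmo, since KO replicate 4 was the highest array and the other KO arrays lay below every WT array. The log2 difference was -0.43 (SE 0.39, 95% interval -1.28 to 0.41, adjusted p = 0.655 by limma). It was -0.83 without KO replicate 4 and -0.18 without KO replicate 3.

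Haao, the iron enzyme that opens the ring of 3-hydroxyanthranilate, was lower in every KO liver than in every WT liver at each of its 3 probes. At the brightest, intensities were 1574.5, 1880.9, 2218.2 and 1779.3 in KO livers, against 3093.9, 3137.3 and 2509.9 in WT livers. The log2 level was 10.80 ± 0.21 (SD, n = 4) in KO livers and 11.47 ± 0.18 (SD, n = 3) in WT livers. That log2 difference of -0.67 (SE 0.17, 1.59-fold, 95% interval -1.05 to -0.29) had an adjusted p of 0.128 by limma and so did not pass.

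The dimmer Haao probes gave larger differences. The next brightest read 595.6, 806.1, 676.2 and 755.4 in KO livers, against 1112, 1344 and 1219.2 in WT livers, a log2 difference of -0.85 (SE 0.17). The dimmest read 296.2, 410.1, 322.2 and 332.2 in KO livers, against 698.7, 695.3 and 578.2 in WT livers, a log2 difference of -1.11 (SE 0.18). In the fit over all probes, in which 12 of 18771 passed (0.0639%), 11 of them lower in KO (0.0586%), these Haao probes had adjusted p of 0.0822 and 0.0515 by limma and stayed short of the threshold. Haao passed at its brightest probe in 2 of 19 alternative settings. These were array weights (-0.82, adjusted p = 0.0154) and omission of both replicates numbered 3 (-0.86, adjusted p = 0.025). Those settings called 963 and 569 genes in all.

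Beyond Haao, the product either goes to full oxidation or to NAD. Acmsd, the decarboxylase that diverts it from NAD synthesis, was dim. Its intensities were 105, 92.9, 98.5 and 110.6 in KO livers, against 104.2, 114.9 and 103.3 in WT livers. The groups overlapped, with a log2 difference of -0.20 (SE 0.19, adjusted p = 0.672 by limma), which ran from -0.31 without KO replicate 4 to -0.09 without KO replicate 2 or WT replicate 2.

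Qprt makes nicotinate mononucleotide from quinolinate and so leads into NAD synthesis. Its intensities were 346.7, 367.1, 351.5 and 445.7 in KO livers, against 691.7, 553.9 and 362.2 in WT livers. WT replicate 3 lay among the KO arrays, and the other WT arrays lay above all of them. The log2 difference of -0.53 (SE 0.24) had a 95% interval of -1.05 to -0.01 before adjustment and an adjusted p of 0.323 by limma. It was -0.83 without WT replicate 3 and -0.29 without WT replicate 1.

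Aadat transaminates kynurenine to kynurenic acid. It had intensities of 128.3, 144.2, 147.4 and 137.7 in KO livers, against 177.7, 174.3 and 135.1 in WT livers. As for Qprt, WT replicate 3 fell within the KO range and the other WT arrays lay above it. The log2 difference was -0.35 (SE 0.19, adjusted p = 0.438 by limma), -0.56 without WT replicate 3 and -0.23 without WT replicate 1.

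**Figure D3:**
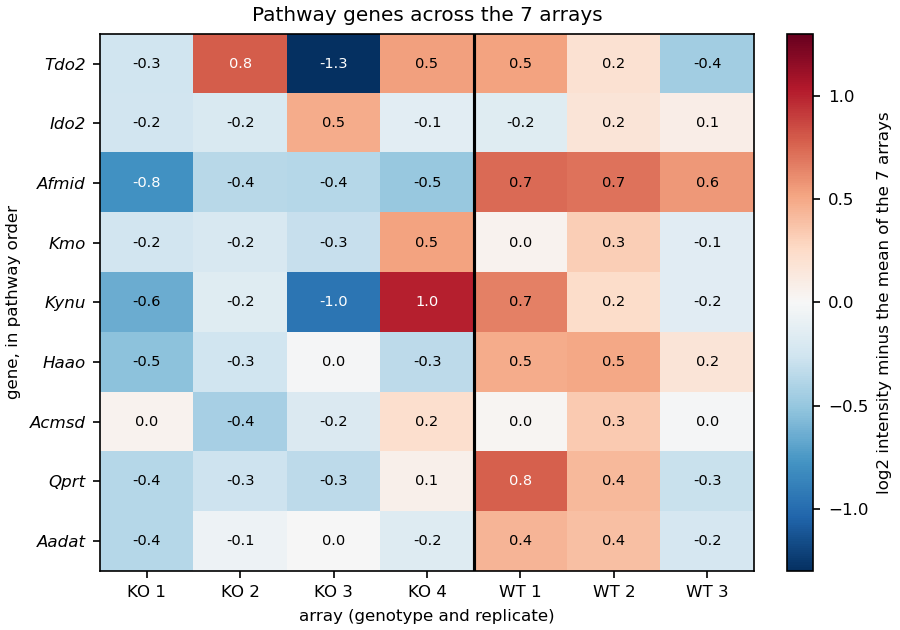
Log2 intensity of the brightest probe of each gene minus its mean over the 7 arrays, with genes in pathway order and KO arrays left of WT arrays. Afmid and Haao separate the groups, Tdo2 and Kynu vary most within KO (SD 0.96 and 0.86, n = 4), and WT replicate 3 is the lowest WT array for Tdo2, Afmid, Kmo, Kynu, Haao, Acmsd, Qprt and Aadat.

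The 9 genes did not move as a block across the arrays. Within KO livers the SD of the log2 level was 0.96 for Tdo2 and 0.86 for Kynu, against 0.20 for Afmid, 0.21 for Haao, 0.20 for Qprt and 0.16 for Aadat (n = 4). KO replicate 3 had the lowest Tdo2 and Kynu of all arrays, while among KO livers it had the highest Haao and Aadat. In WT livers, replicate 3 was the lowest array for 8 of the 9 genes, all but Ido2. Of all genes other than Afmid, Haao ranked 28 in likeness to Afmid (Pearson r = 0.955 over the 7 arrays, 0.851 after group means were removed). Aadat (0.732) and Qprt (0.687) came next among the pathway genes, and Tdo2 (0.147), Ido2 (0.198), Kmo (0.246), Acmsd (0.334) and Kynu (0.364) were far from it. The order changed after group means were removed, with Aadat at 0.745, Ido2 at 0.401 and Qprt at 0.382. Kynu (0.174), Tdo2 (0.149), Kmo (0.118) and Acmsd (-0.401) then followed. The arrays share the normalization and the difference between the groups, so these coefficients describe the 7 arrays only.

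The 5 named genes most like Afmid over the 7 arrays were Sardh (r = 0.997), Arrb1 (0.985), Grhpr (0.98), Sirt2 (0.978) and Abcb6 (0.977). Sardh, which encodes the mitochondrial sarcosine dehydrogenase, read 168.8, 192.1, 187.6 and 186.7 in KO livers, against 274.7, 269.9 and 267.2 in WT livers. Its log2 difference was -0.78 (SE 0.15, adjusted p = 0.0878 by limma), and its r was 0.946 after group means were removed. That r was 0.838 for Sirt2, 0.837 for Abcb6, 0.725 for Arrb1 and 0.633 for Grhpr. Grhpr, a glyoxylate reductase of hepatocytes, differed by -0.40 (SE 0.14) and Abcb6, a porphyrin transporter, by -0.82 (SE 0.17). Arrb1, a beta-arrestin, differed by -0.52 (SE 0.15) and Sirt2, an NAD-dependent deacetylase, by -0.62 (SE 0.16). None of the 5 passed with all arrays. Every KO value lay below every WT value for each, which follows from their choice by likeness to a gene that separates the groups, and nothing is read from it. Sardh (adjusted p = 0.0338 by limma) and Abcb6 (0.0177) passed without both replicates numbered 3, where 569 genes did. With array weights, where 963 genes passed, Sardh (0.0144), Arrb1 (0.0274), Sirt2 (0.0211) and Abcb6 (0.0121) did.

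Afmid starts 95 bases from the start of Tk1 on the opposite strand, by the RefSeq promoter windows, and its upstream window lies inside the Tk1 gene. Tk1, the thymidine kinase of dividing cells, read 105.2, 108.4, 89.7 and 99.7 in KO livers, against 128, 113.5 and 100.3 in WT livers. These values overlapped close to the floor, with a log2 difference of -0.41 (SE 0.23, adjusted p = 0.438 by limma) that was -0.22 without WT replicate 1. On the same side, Syngr2 differed by -0.42 (SE 0.19) and Tmc6 by -0.15 (SE 0.18). On the other side, Birc5 differed by -0.11 (SE 0.18), Tha1 by 0.22 (SE 0.30) and Socs3 by 0.31 (SE 0.32). Over all arrays, Birc5 (87.1 to 100.7), Syngr2 (103.5 to 132.3), Tmc6 (104 to 126) and Tha1 (100.1 to 152.8) also read close to the floor of 93.6. A difference in these genes could therefore be missed. Socs3 was brighter (283.4 to 769.3). None of these 6 neighbours passed with all arrays, and the values of all 6 overlapped between the groups. Tha1 passed without both replicates numbered 3 (0.75, adjusted p = 0.0439 by limma), where 569 genes did.

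Among 8 further enzymes of kynurenine breakdown, 7 were tested, 5 had a KO mean below the WT mean and 2 above, and none passed (1 at an unadjusted p under 0.05). Of all genes tested, 45.7% had a lower KO mean and 14.8% had an unadjusted p under 0.05 in limma. Ido1, the dioxygenase of immune and other cells, did not pass the filter on dim probes. Kyat3, another kynurenine aminotransferase, read 328.6, 204.3, 309.9 and 187 in KO livers, against 455.8, 446.7 and 595.3 in WT livers. Every KO value was below every WT value, with a log2 difference of -1.22 (SE 0.27, adjusted p = 0.104 by limma) and -0.86 at its other probe. Kyat3 passed with array weights (-1.05, adjusted p = 0.0335) and without KO replicate 3 and WT replicate 3 together (-1.21, adjusted p = 0.0439). Those settings called 963 and 569 genes in all, against 9 in the fit as reported. Gcdh, the glutaryl-CoA dehydrogenase of the oxidative end of the route, differed by -0.32 (SE 0.15), again without overlap. Got2, a mitochondrial aminotransferase, had every KO value above every WT value, with a difference of 0.06 (SE 0.14) and of -0.16 at its other probe. Of the 7 genes, 2 thus separated downward and 1 upward, as did 5.48% and 7.62% of all genes. Aldh8a1, the dehydrogenase that acts after Acmsd, differed by -0.58 (SE 0.32), by -0.92 without KO replicate 4, by -0.32 without KO replicate 3 and by -0.27 without both replicates numbered 3.

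The list had a median log2 difference of -0.32. For NAD synthesis and nicotinamide salvage, 7 of 11 genes were tested, 5 below 0 and 2 above, with a median of -0.06 and none past the threshold (0 at an unadjusted p under 0.05). Of all genes tested, 45.7% lay below 0 and 14.8% had an unadjusted p under 0.05 in limma. Nadk, NAD kinase, differed by 0.19 (SE 0.14, and by 0.07 at its other probe), with every KO value above every WT value, as for 7.62% of all genes. Nadk2, the mitochondrial counterpart of Nadk, differed by -0.18 (SE 0.18) and Naprt, of the nicotinic acid route, by -0.14 (SE 0.23). Naprt turned sign without KO replicate 1 (0.02) or WT replicate 2 (0.02), while its other probes differed by -0.57 and -0.46. The other probe of Nadk2 differed by 0.19. Other uses and transport of tryptophan had 6 of 9 tested genes below 0, against 45.7% of all genes, and a median of -0.18. None passed the threshold (1 at an unadjusted p under 0.05, against 14.8% of all genes). There, Maob, a monoamine oxidase, differed by -0.53 (SE 0.19), Wars, the tryptophanyl-tRNA synthetase, by -0.32 (SE 0.15, without overlap, and by -0.49 to 0.07 at its other probes) and Slc16a10, an aromatic amino acid transporter, by -0.38 (SE 0.22). Slc16a10 was -0.10 without WT replicate 2, whose intensity of 206.5 was the highest.

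Kynurenine and its products can act on the aryl hydrocarbon receptor. Of that receptor and its targets 6 of 10 were tested, and all 6 lay below 0, as did 45.7% of all genes tested. Their median was -0.21 and none passed the threshold. An unadjusted p under 0.05 in limma was found for 2 of the 6, against 14.8% of all genes. Arnt (-0.02, and -0.55 to 0.12 at its other probes), Nqo1 (-0.06) and Cyp1b1 (-0.13) each differed by less than their SE. Cyp1a2, a cytochrome P450 of hepatocytes, read 1491.1, 1356.6, 2091.9 and 1416.2 in KO livers, against 1494.9, 3178.7 and 2537.5 in WT livers. The groups overlapped, since KO replicate 3 lay above WT replicate 1, and the log2 difference was -0.57 (SE 0.26, adjusted p = 0.333 by limma). The other Cyp1a2 probe differed by -0.3. Ugt1a6a, a glucuronosyltransferase, differed by -0.52 (SE 0.21), and by -0.96 and -0.64 at its other probes. It passed only with array weights (adjusted p = 0.0455 by limma), where 963 genes did. Tiparp, a feedback regulator of the receptor, differed by -0.30 (SE 0.28). Tiparp was -0.57 without KO replicate 2 and -0.09 without KO replicate 4, and Cyp1a2 was -0.89 without WT replicate 1 and -0.33 without WT replicate 2. Over all arrays, Cyp1b1 (98.6 to 120.5), Nqo1 (96.7 to 135.7) and Tiparp (94.3 to 150.4) read close to the floor of 93.6. Ahr itself, Ahrr, Cyp1a1 and Aldh3a1 did not pass the filter on dim probes.

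Tdo2 is known as a gene that glucocorticoids induce in liver. The glucocorticoid receptor and 8 genes induced by glucocorticoids were all tested, 4 below and 5 above 0, with a median of 0.14. None passed the threshold, and 2 had an unadjusted p under 0.05 in limma. Of all genes tested, 45.7% lay below 0 and 14.8% had an unadjusted p under 0.05. The receptor gene Nr3c1 (96.5 to 105.8) and the listed gene Tat (92.1 to 134.5) read close to the floor of 93.6. Sgk1, a kinase, read 3306.8, 3129.5, 3001.8 and 2792.2 in KO livers, against 2202.2, 2036.5 and 1690.7 in WT livers. All its KO values exceeded all WT values, with a log2 difference of 0.65 (SE 0.16, adjusted p = 0.123 by limma). It passed with array weights (adjusted p = 0.0235), where 963 genes did. Dusp1, a phosphatase, also had every KO value above every WT value, as did 7.62% of all genes, with a difference of 0.44 (SE 0.17). Per1, a clock gene, differed by -0.42 (SE 0.26). Per1 was -0.63 without WT replicate 1, -0.19 without WT replicate 3 and -0.02 without both replicates numbered 3.

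**Figure D4:**
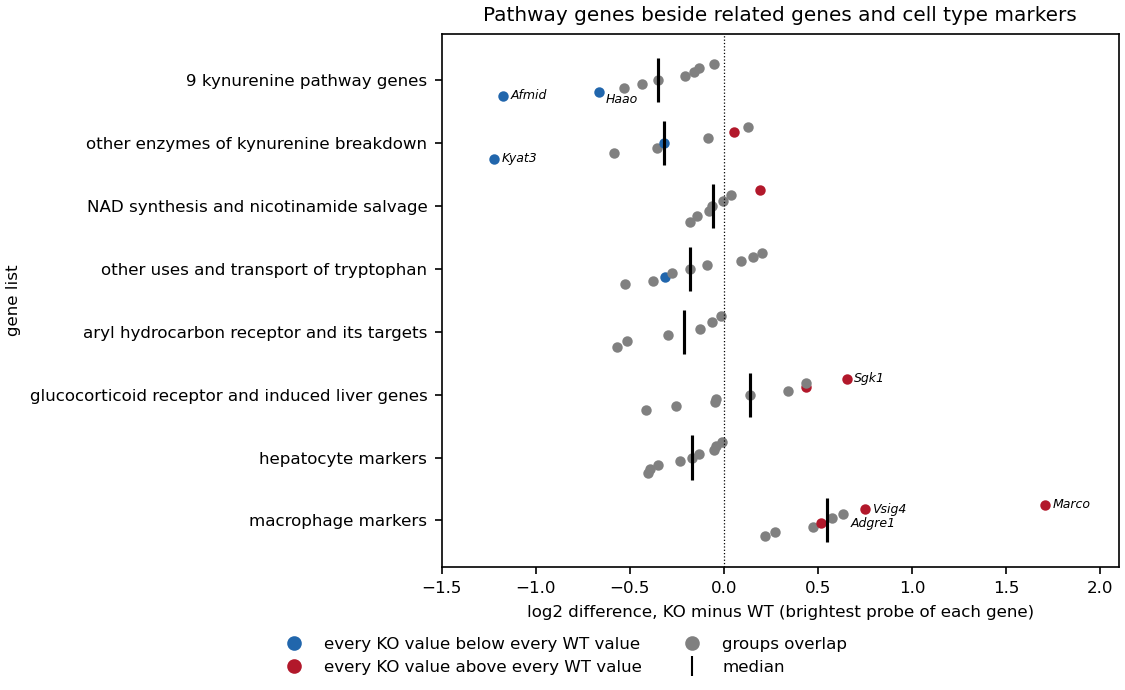
Log2 difference (KO minus WT) of every tested gene of the pathway, of 5 lists of related genes and of 2 lists of cell type markers, with a vertical bar at each list's median. Blue and red points mark genes whose KO values all lie below or above their WT values. The pathway's median is -0.35, that of the hepatocyte markers -0.17 and that of the macrophage markers 0.55.

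Markers of hepatocytes and of macrophages were set beside the pathway. All 9 tested hepatocyte markers had a KO mean below the WT mean, as did 45.7% of all genes tested. Their median log2 difference was -0.17. None passed (0 at an unadjusted p under 0.05, against 14.8% of all genes), and for none did the groups separate. Their summed intensity was 89337 to 99069 in KO livers, against 97452 to 106259 in WT livers. Most of this sum came from Apoa1 (22819.8 to 27840.5 over the 7 arrays), Ttr (22361 to 24878.3) and Cyp2e1 (15159.1 to 21599.3). The Alb probe read only 122.3 to 279.3, so the sum says little of the dimmer markers. All 8 tested markers of Kupffer cells and macrophages had a KO mean above the WT mean, as did 7159 of all 13190 genes tested. Their median was 0.55 and none passed the threshold. An unadjusted p under 0.05 in limma was found for 4 of the 8, against 14.8% of all genes. Every KO value lay above every WT value for 3 of the 8, Vsig4, Cd163 and Marco, against 7.62% of all genes. Marco differed most, by 1.71 (SE 0.35). The summed intensity of the 8 markers was 2220 to 3379 in KO livers, against 1647 to 2027 in WT livers, and Cd5l did not pass the filter. The part of these markers in the pathway's values was not tested.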

How the data were processed

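Per the labels, biotin-labelled RNA amplified from total liver RNA of 4 KO and 3 WT samples was measured on Illumina arrays. The deposited values are linear intensities of 45281 probes that the authors had normalized between arrays, since the 7 columns share their quantiles; the submitters' processing notes name Partek, and the method is not given in the sources used here. The 14 columns of a scanner table, which no label links to a sample, were not used. Groups and replicate numbers came from the sample titles.

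With limma 3.58.1 (R 4.3.3), normexp background correction used the saddle method and an offset of 16, and the deposited intensities so corrected were taken to log2. For the floor of 93.6, a normal distribution was matched to intensities under the mode (87.5), and its 0.95 quantile was read. Probes above it on at least 3 arrays were kept (18771). Gene names come from the platform annotation, in which 34885 probes have 1 symbol, 18 several and 10378 none; RefSeq (GRCm38.p6) matched 34807 by Entrez identifier and changed 0 symbols. The brightest kept probe stood for a gene, and 2808 unnamed probes were tested as themselves. The KO minus WT difference was tested in limma with lmFit and eBayes (two-sided, Benjamini-Hochberg over all 13190 features, threshold 0.05), and likewise over all kept probes. The median SE of a log2 difference was 0.19, and the number of arrays limits the precision. The procedure was also run on data simulated with independent normal noise for each gene, and no result given here rests on that run.

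The members and lists were chosen with earlier results of these data known. Named genes were all members, up to 3 genes of smallest p from each related list with any that passed, 3 measured neighbours of Afmid on each side, the 5 genes most correlated with Afmid, and Ltbr. Other genes named were chosen after their values were seen. Alternatives changed the background correction, normalization, filter, prior, array weights, probe choice and replicate block, and left out arrays. Further marker lists, of erythroid cells, adipocytes and mesothelium, cholangiocytes, stellate cells with fibroblasts, sinusoidal endothelium, lymphoid cells (T with NK, and B with plasma), neutrophils and dendritic cells, held 1 to 7 tested genes each, with medians from -0.26 to 0.39 and none past the threshold.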

Additional observations from a re-analysis of the deposited data

Results flagged for a closer look

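Over the 17 probes of the pathway, 2 KO values stood far from the other KO values of the same probe by Dixon's test at the 95% level, which chance alone flags for about 1 in 20 groups. For Kmo it was KO replicate 4, at a log2 intensity of 10.07 (intensity 1134), with a gap of 0.88 of the KO range. For Ido2 it was KO replicate 3, at a log2 intensity of 5.48 (intensity 106.5), with a gap of 0.844 of the KO range. That was the only KO array on which Ido2 exceeded the floor. Groups of 3 such as WT were not tested in this way.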

How the results depend on the processing

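The Afmid difference stayed negative in all 19 alternatives, from -1.28 to -0.62, and was called in 9 of them. Among these 9, quantile normalization after correction only repeated the main fit, since the arrays already shared their quantiles. The Afmid difference shrank most with no background correction (-0.80), an offset of 50 (-0.93) and the mean of kept probes (-0.62). All of these fits use the values that chose the pathway, so they describe Afmid and do not test it. Kmo, Kynu, Haao, Acmsd, Qprt and Aadat stayed negative wherever tested. The count of pathway genes with a lower KO mean was 7 to 9, with 7 where only the 7 genes above the floor on all arrays were tested, which also left 10 probes lower in KO and 5 without overlap. Called genes, 9 in the analysis as reported, were 4 without background correction, 19 with no filter, 1 with probes above the floor on all arrays, 2 with a trended robust prior, 3 with the mean of kept probes and 963 with array weights. Called probes, 12 as reported, were 21 after cyclic loess, 59 with no filter, 2 with probes above the floor on all arrays, 1055 with array weights and 22 with a floor of 91.3 (the 0.85 quantile), added after seeing the data. Leaving out each array in turn gave 2 to 5 genes and 3 to 37 probes, and omission of both replicates numbered 3 gave 569 and 826. In those fits Tdo2 ran from -0.45 to 0.26, Ido2 from -0.22 to 0.02, Naprt from -0.44 to 0.02 and Socs3 from -0.08 to 0.76, and Nadk2 was 0.00 with the mean of kept probes. The cause of these shifts was not tested. With the replicate number as a block, 3 genes and 5 probes passed. Deviations of same-numbered KO and WT samples from their group means correlated at -0.2, -0.04 and -0.3, which shows no likeness within a number. With only 3 WT arrays, whose deviations constrain one another, these values cannot settle whether the numbers pair the samples. Of the named genes other than Afmid, those that passed under an alternative did so with array weights or without KO replicate 3 and WT replicate 3. Probes near the floor, such as those of Ido2, Acmsd and the dimmer Afmid probes, limit what can be detected.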
